A study of Mus musculus with 7 samples.

Results

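Adipokines are proteins that fat tissue releases into the blood or into its surroundings. The transcripts of 10 such genes, Adipoq, Lep, Cfd, Retn, Rbp4, Nampt, Apln, Angptl4, Nrg4 and Agt, were compared between tumors formed by NM1 KO cells and tumors formed by KO + NM1 cells. They were found among the 46603 genes of the count files by their GENCODE M21 symbols, and each symbol matched 1 gene. The rule is a list of names and uses no measured value, but the list was chosen with earlier results of these data known.

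All tumors grew in female Balb/c nude mice, which lack a thymus and so most T cells, and which were 16 weeks old when injected under the skin. The injected cells were mouse embryonic fibroblasts without nuclear myosin 1 (NM1), an isoform of the Myo1c gene that works in the nucleus as a regulator of transcription. They carried either no further change (KO) or a lentiviral NM1 coding sequence tagged with HA and V5 (KO + NM1), for which neomycin-selected single clones were tested, so both groups share the CRISPR deletion. The sample descriptions place the injection in the right flank and the tumor collection at 30 days, while the study's results text names the mammary pad. The tumor of each group was cut into 4 equal pieces, of which 3 KO pieces and 4 KO + NM1 pieces gave a library of total RNA. By the sample descriptions each group is thus 1 tumor, while the study's methods write of tumors, and the p-values measure only the spread between pieces. Reads of injected and host cells are counted together.

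Fat cells store triglyceride and report on that store through secreted proteins. Adiponectin (Adipoq) and leptin (Lep) act on liver, muscle and brain to tune fuel use and appetite, adipsin (Cfd) is the complement factor D that cuts factor B, and resistin (Retn) is in the mouse a hormone of white fat. Other members have wider sources: retinol-binding protein 4 and angiotensinogen come largely from liver, apelin from fat and endothelium, and NAMPT is an enzyme of NAD synthesis made in almost every cell.

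The proximal promoters of 5 members are shown because they stand at both ends of the result below: Lep, Retn, Adipoq and Cfd differed most between the tumors, and Nampt alone had a higher mean in the KO tumor. RefSeq promoter windows (GRCm38.p6) were matched for 9 members and not for Angptl4. Each sequence is the 100 bases before the RefSeq start, 5′ to 3′ on the strand of the gene, which is the plus strand for all 5. Capitals mark matches on either strand to TTGCGNAA, a site of the C/EBP factors of fat cells, to TATAA, and to ACGTG or GCGTG, the cores of hypoxia response elements.
Adipoq, chr16:23146436-23146535: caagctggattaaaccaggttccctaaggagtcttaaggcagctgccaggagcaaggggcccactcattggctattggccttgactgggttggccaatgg
Lep, chr6:29060121-29060220: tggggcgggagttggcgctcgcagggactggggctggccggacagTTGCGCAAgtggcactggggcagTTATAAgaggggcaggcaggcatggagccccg
Cfd, chr10:79890753-79890852: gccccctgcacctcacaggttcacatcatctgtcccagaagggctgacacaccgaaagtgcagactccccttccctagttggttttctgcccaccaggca
Retn, chr8:3655670-3655769: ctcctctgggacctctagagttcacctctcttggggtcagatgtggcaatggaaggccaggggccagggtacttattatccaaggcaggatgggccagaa
Nampt, chr12:32820235-32820334: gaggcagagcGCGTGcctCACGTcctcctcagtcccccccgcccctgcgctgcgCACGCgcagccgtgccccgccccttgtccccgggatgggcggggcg

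Of the 9 members with a window, running from 250 bases before to 50 after the start, only Lep held TTGCGNAA, which was in 0.798% of the 32851 mouse promoter windows. Its match lies at -55 to -48 from the start and reads the same on both strands. The matches of Lep to TATAA on its own and on the other strand overlap. This motif was found in 3 of 9 members against 24.9% of all windows, ACGTG in 3 of 9 against 19.6% and GCGTG in 3 of 9 against 32.4%. Rbp4, Nampt and Nrg4 held both hypoxia cores. AGGTCA, the single site of nuclear receptors such as PPARG, was found in Nampt and Nrg4, 2 of 9 against 16.3%. The paired PPARG site known as DR1 was in 0 of 9 members and in 0.0396% of all windows. G and C made up 79% of the 100 bases shown for Nampt, more than in 95% of promoters, and 55% to 69% of those shown for the other members, around a median of 55% over all promoters. These matches describe the letters of the windows and were not tested as binding sites.

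In the tumor pieces, 8 of the 10 adipokines were lower in the KO tumor, by 20.5-fold to 611-fold, and none was called in the other direction. Genes were called at an adjusted p under 0.05 (edgeR quasi-likelihood test, Benjamini-Hochberg adjustment over 16887 genes) together with a change of at least 2-fold, which holds for 20.3% of all genes tested as lower and 17.1% as higher in the KO tumor. All 10 adipokines passed the filter on low counts, but Lep and Agt did so only through the KO + NM1 pieces, where their counts were higher. On the higher side, edgeR gave 1 of them an unadjusted p under 0.05, Nampt, and DESeq2 and limma voom called 0 and 0. Their median log2 fold change, KO minus KO + NM1, was -4.63, beside 0.00 over all genes tested. The same 8 genes showed no overlap between the groups, each KO piece lying below each KO + NM1 piece, as did 26.4% of all genes tested. For a single gene, 3 against 4 pieces can be split in 35 ways, so the two-sided exact permutation test gave p = 0.0571 for each of the 8, the smallest value it allows, and cannot pass 0.05. In bulk tissue, fewer cells of a type and less RNA per cell cannot be told apart.

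**Figure D1:**
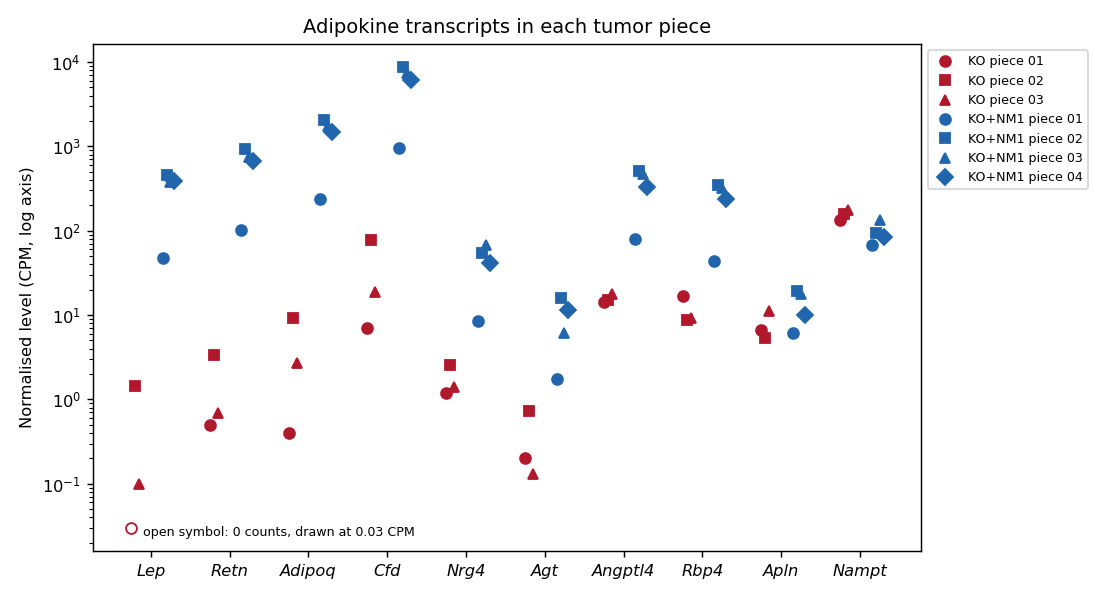
Normalised level of each adipokine in every tumor piece, in CPM (counts scaled to the total of the library) on a log axis, with KO pieces in red and KO + NM1 pieces in blue and 1 symbol per piece number. Genes are ordered by fold change from Lep to Nampt, the groups separate for the first 8 genes and overlap for Apln and Nampt, and piece 01 is the lowest KO + NM1 piece for each gene; the open symbol is Lep in KO piece 01, with 0 counts.

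The libraries held 24088309 to 28326568 counts, so that 3 counts, taken as the floor of detection, correspond to 0.0991 to 0.148 CPM after scaling by the TMM method. The fewest counts were those of Lep, with 0 to 42, and of Agt, with 4 to 21, in the KO pieces. The 10 adipokines together took 0.0196% to 0.0304% of the counts of a KO library and 0.165% to 1.21% of those of a KO + NM1 library. Mitochondrial transcripts took 1.81% to 2.14% of the counts in KO pieces and 5.11% to 18.5% in KO + NM1 pieces. Without them in the library size the same number of adipokines, 8, was called lower. The TMM scaling makes up for such a change of library size, so this setting cannot show whether the mitochondrial share matters. Myo1c, whose NM1 isoform was deleted and replaced, stood at 289 to 313 CPM in KO and 382 to 438 CPM in KO + NM1 pieces, with a log2 fold change of -0.43 (SE 0.13, adjusted p = 0.031, edgeR). Gene counts do not separate its isoforms, and so do not check the deletion.

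Adiponectin is the most abundant hormone of fat tissue and raises insulin sensitivity. Adipoq (ENSMUSG00000022878, chr16:23146536-23158028, plus strand, GRCm38) measured 0.400, 9.18 and 2.67 CPM in KO pieces 01 to 03 and 235, 2070, 1760 and 1460 CPM in KO + NM1 pieces 01 to 04. Every KO + NM1 piece was above every KO piece, and piece 01 was 6.21-fold below the lowest of the other KO + NM1 pieces. The mean was 4.08 ± 4.55 CPM (SD, n = 3) in KO and 1380 ± 804 CPM (SD, n = 4) in KO + NM1. The log2 fold change was -8.40 (SE 1.00, adjusted p = 0.00329, edgeR), or 338-fold lower in KO.

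Leptin signals the size of the fat store to the hypothalamus. Lep (ENSMUSG00000059201, chr6:29060220-29073877, plus strand) had 0, 42 and 3 counts in the KO pieces, or 0, 1.46 and 0.0991 CPM, and 47.9, 455, 377 and 390 CPM in the KO + NM1 pieces. KO pieces 01 and 03 were at or under the floor, and piece 01 of KO + NM1 was again the low one. Lep had the largest fold change of the 10 genes, -9.25 on the log2 scale (SE 1.21, adjusted p = 0.00385, edgeR), or 611-fold lower in KO. Without KO piece 02 the other KO pieces hold at most 3 counts each, and Lep was at least 3190-fold lower in KO, taking the floor of each library.

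Adipsin is an enzyme of the alternative complement pathway. Cfd (ENSMUSG00000061780, chr10:79890853-79892655, plus strand) measured 7.10, 77.6 and 18.7 CPM in the KO pieces and 944, 8710, 7420 and 6170 CPM in the KO + NM1 pieces. Here too the groups did not overlap, and the order of pieces within each group was that of Adipoq. Cfd had a log2 fold change of -7.40 (SE 0.95, adjusted p = 0.00378, edgeR), or 169-fold lower in KO.

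Resistin opposes insulin action in the mouse. Retn (ENSMUSG00000012705, chr8:3655770-3660110, plus strand) measured 0.5, 3.37 and 0.693 CPM in the KO pieces and 101, 936, 738 and 671 CPM in the KO + NM1 pieces. KO piece 02 was the highest and KO piece 01 the lowest of the KO pieces for Retn, as for Adipoq, Lep and Cfd. Retn had a log2 fold change of -8.65 (SE 0.88, adjusted p = 0.00173, edgeR), or 402-fold lower in KO. KO piece 02 carried much of what was left of these transcripts: without it the log2 fold change was -9.92 for Adipoq, -8.94 for Cfd and -10.11 for Retn.

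ANGPTL4 inhibits lipoprotein lipase and is released by fat on fasting. Angptl4 (ENSMUSG00000002289, chr17:33773750-33781830, minus strand) measured 14.1, 15.2 and 17.7 CPM in the KO pieces and 78.7, 508, 472 and 329 CPM in the KO + NM1 pieces. The KO pieces lay within 1.25-fold of each other, a much narrower spread than for Adipoq, and the groups did not overlap. Angptl4 had a log2 fold change of -4.47 (SE 0.55, adjusted p = 0.00196, edgeR), or 22.1-fold lower in KO.

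Retinol-binding protein 4 carries vitamin A in blood. Rbp4 (ENSMUSG00000024990, chr19:38116629-38125281, minus strand) measured 16.9, 8.65 and 9.35 CPM in the KO pieces and 44.3, 348, 324 and 240 CPM in the KO + NM1 pieces. KO piece 01, the lowest for Adipoq, was here the highest of the KO pieces, still below every KO + NM1 piece. The log2 fold change was -4.36 (SE 0.64, adjusted p = 0.00345, edgeR), or 20.5-fold lower in KO.

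NRG4 is a growth factor of the neuregulin family that fat sends to the liver, where it acts through ERBB receptors. Nrg4 (ENSMUSG00000032311, chr9:55220222-55326844, minus strand) measured 1.20, 2.54 and 1.42 CPM in the KO pieces and 8.5, 55.1, 67.3 and 40.9 CPM in the KO + NM1 pieces. The groups did not overlap, and the log2 fold change was -4.64 (SE 0.65, adjusted p = 0.0029, edgeR), or 24.9-fold lower in KO. Exons of Nrg4 overlap those of Fbxo22 over 368 bases and of Gm15625 over 177 bases on the opposite strand, and the strand setting of the counting is not given in the sources used here, so reads there may be assigned to either gene.

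Angiotensinogen is the precursor that renin and ACE turn into angiotensin II. Agt (ENSMUSG00000031980, chr8:124556534-124569706, minus strand) measured 0.200, 0.730 and 0.132 CPM in the KO pieces, from 6, 21 and 4 counts, and 1.75, 15.8, 6.13 and 11.6 CPM in the KO + NM1 pieces. The groups did not overlap, and Agt varied more than the other called adipokines among KO + NM1 pieces 02 to 04, by 2.58-fold. The log2 fold change was -4.62 (SE 0.86, adjusted p = 0.00785, edgeR), or 24.7-fold lower in KO, and -5.81 without KO piece 02.

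Apelin is the ligand of the APJ receptor on endothelium. Apln (ENSMUSG00000037010, chrX:48025146-48034853, minus strand) measured 6.67, 5.32 and 11.3 CPM in the KO pieces and 6.09, 19.1, 17.8 and 9.95 CPM in the KO + NM1 pieces. KO + NM1 pieces 01 and 04 lay within the range of the KO pieces. The log2 fold change of -0.77 (SE 0.46, adjusted p = 0.213, edgeR) did not pass, with an exact permutation p of 0.286. Without KO + NM1 piece 01 it was -1.14 and passed, with an adjusted p of 0.0245 from edgeR.

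NAMPT makes nicotinamide mononucleotide, the precursor of NAD, inside cells and is also found outside them. Nampt (ENSMUSG00000020572, chr12:32819545-32853349, plus strand) measured 135, 156 and 175 CPM in the KO pieces and 68.5, 93.8, 136 and 84.2 CPM in the KO + NM1 pieces. It was the only member with a higher mean in KO, at 155 ± 20.1 CPM (SD, n = 3) against 95.5 ± 28.6 CPM (SD, n = 4), and KO + NM1 piece 03 overlapped the KO range. The log2 fold change was 0.70 (SE 0.24, adjusted p = 0.0468, edgeR), or 1.62-fold, which is under the 2-fold needed for a call, and the exact permutation p was 0.114. Over 17 alternatives of the processing its adjusted p ran from 0.00152 to 1, and was under 0.05 in 4 of them.

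**Figure D2:**
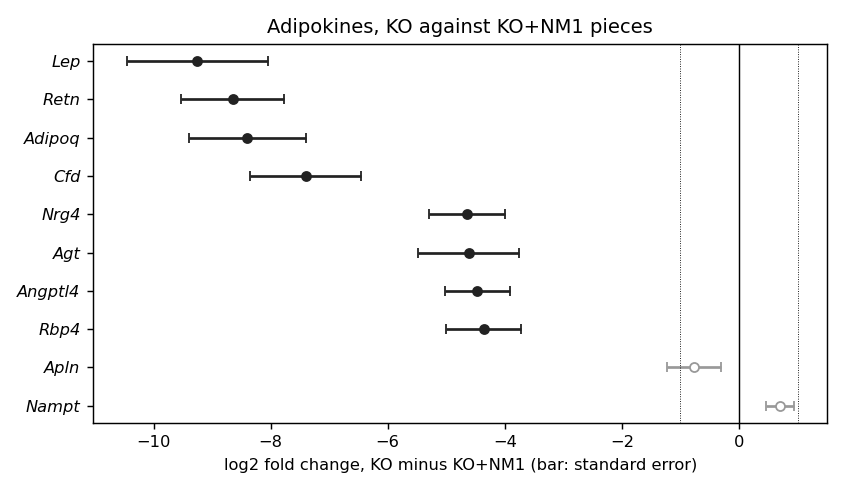
Log2 fold change of each adipokine, KO minus KO + NM1, with the standard error from edgeR as a bar. Filled points are genes called at an adjusted p under 0.05 and at least 2-fold, open points are not called, and dotted lines mark 2-fold: Lep, Retn, Adipoq and Cfd lie between -9.25 and -7.40, Nrg4, Agt, Angptl4 and Rbp4 between -4.64 and -4.36, and Apln and Nampt near 0.

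The 8 called adipokines thus stood at 2 sizes of fold change, with no value between -7.40 and -4.64. The larger size was that of Lep, Retn, Adipoq and Cfd. Scaled to transcript length as well (RPKM, the CPM divided by the kilobases of exon), Cfd had the highest mean in both tumors, with 37.4 RPKM in KO and 6300 RPKM in KO + NM1. In KO this rests on piece 02, since Cfd ran from 7.70 to 84.1 RPKM and was below Nampt in pieces 01 and 03. In KO + NM1 the order went on with Adipoq at 1000 RPKM, Retn at 387, Rbp4 at 178, Angptl4 at 97.9, Lep at 94.7, Nampt at 18.9, Nrg4 at 7.07, Agt at 4.66 and Apln at 4.20 RPKM. The ranges over pieces of neighbours in this order overlapped, except that Nampt, at 13.6 to 26.8 RPKM, lay above Nrg4, at 1.40 to 11.1 RPKM. These ranges do not compare the genes within a piece. Within each KO + NM1 piece the order from Cfd through Adipoq, Retn and Rbp4 to Angptl4 was the same, while Lep lay above Angptl4 in piece 04 only. In KO the order after Cfd was Nampt at 30.7 RPKM, Rbp4 at 8.67, Angptl4 at 4.43, Adipoq at 2.96, Apln at 2.46, Retn at 0.964, Nrg4 at 0.283, Agt at 0.187 and Lep at 0.155 RPKM. There Nampt, from 26.6 to 34.6 RPKM, lay above the Rbp4 range of 6.44 to 12.6 RPKM, and Rbp4 above the Angptl4 range of 3.99 to 4.99 RPKM, while all other neighbours overlapped.

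Within a piece, Cfd, Retn, Lep and Rbp4 of the KO + NM1 tumor kept nearly fixed proportions to Adipoq. The ratio of Cfd to Adipoq, per kilobase, was 6.02, 6.30, 6.33 and 6.34 in pieces 01 to 04, although piece 01 had several-fold less of both. Retn to Adipoq was 0.367 to 0.403 and Lep to Adipoq 0.0839 to 0.110 in the same pieces. In the KO pieces these ratios were 10.4 to 26.6 for Cfd, 0.227 to 1.09 for Retn and 0 to 0.0655 for Lep, so that Cfd was higher and Lep lower against Adipoq than in any KO + NM1 piece. Rbp4 to Adipoq was 0.169 to 0.194 in KO + NM1 and 0.970 to 43.5 in KO, and Angptl4 to Adipoq 0.0880 to 0.131 against 0.647 to 13.8. Agt to Adipoq varied more, at 0.00255 to 0.00578 in KO + NM1 and 0.0361 to 0.365 in KO. The KO ratios rest on as few as 12 counts of Adipoq, in piece 01.

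Other transcripts of fat cells were lower in KO as well, as were the 8 called adipokines. Of 12 white adipocyte markers, none of them a member, 12 were lower in KO. Their log2 fold changes ran from -9.54 to -3.52, across both sizes seen for the adipokines and the gap between them, with a median of -6.95. Their summed level was 189 to 362 CPM in KO and 4500 to 32400 CPM in KO + NM1 pieces. No marker of the list was at 0 in every KO piece. Plin1, which coats the lipid droplet, had a log2 fold change of -9.10 (SE 1.00, adjusted p = 0.00261, edgeR), Plin4, another droplet protein, -7.47 (SE 0.71, adjusted p = 0.00132, edgeR), and Fabp4, a fatty acid carrier, -7.82 (SE 0.71, adjusted p = 0.00126, edgeR). KO + NM1 piece 01 had the lowest sum of its group at 4500 CPM, as for the adipokines. Whether fewer fat cells account for the adipokine levels was not tested.

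Set against the median log2 CPM of these 12 markers in the same piece, Angptl4, Nrg4, Rbp4, Adipoq, Cfd, Retn and Lep varied over the KO + NM1 pieces by only 0.19, 0.20, 0.29, 0.48, 0.55, 0.57 and 0.87 log2 units. Agt varied by 1.52, Apln by 1.45 and Nampt by 2.23. Between the tumors, the mean of this difference, KO minus KO + NM1, was -2.50 for Adipoq, -3.42 for Lep, -1.31 for Cfd and -2.31 for Retn, so these were lower in KO by more than the marker median was, but with Plin1 alone as the reference the values were 0.68, -0.25, 1.87 and 0.86, which turns the direction of Adipoq, Cfd and Retn. Rbp4, Angptl4, Nrg4 and Agt stood above the marker median in KO by 2.29, 2.19, 2.04 and 2.11 log2 units more than in KO + NM1, Apln by 5.65 and Nampt by 7.08, and with Plin1 the direction of these 6 was the same. They are descriptions of these pieces, with no test.

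**Figure D3:**
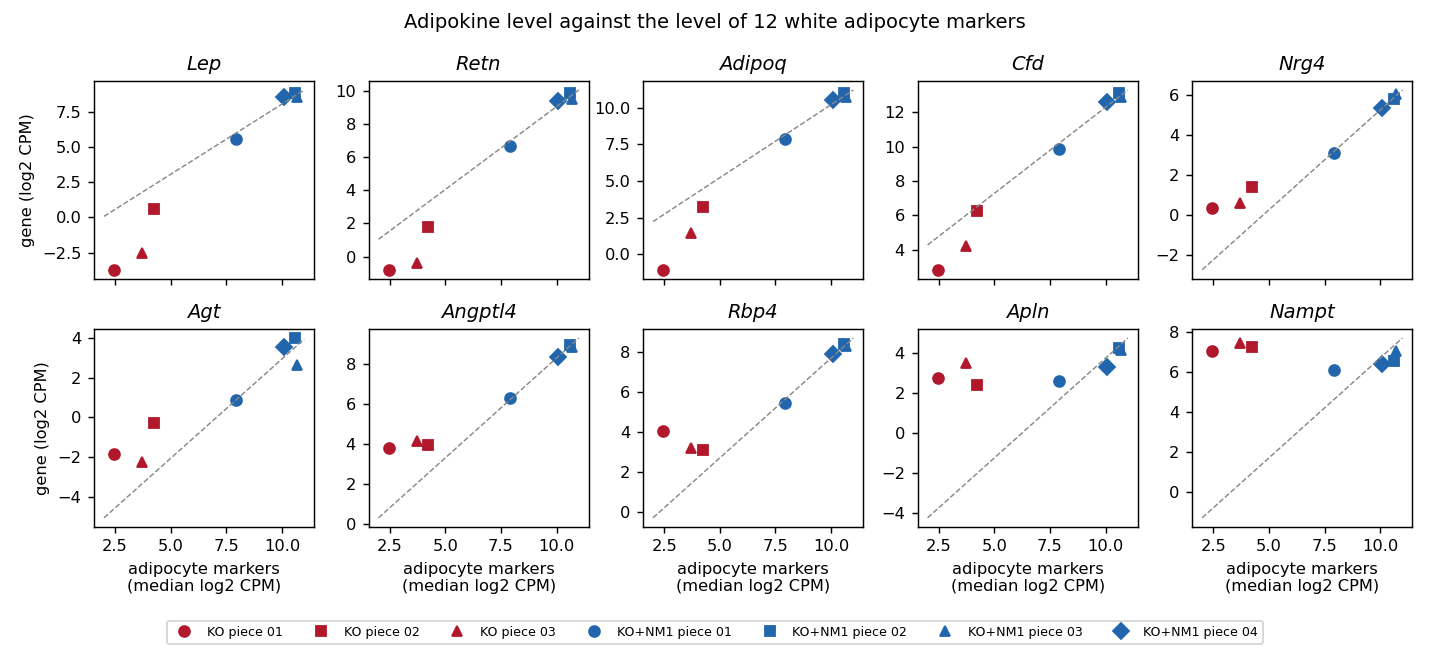
Log2 CPM of each adipokine (vertical, with a small prior count added so that 0 can be drawn) against the median log2 CPM of 12 white adipocyte markers (horizontal) in the 7 pieces. The dashed line has a slope of 1 through the mean of the KO + NM1 pieces; the KO + NM1 pieces follow it for all genes but Agt, Apln and Nampt, and the KO pieces lie below it for Lep, Retn, Adipoq and Cfd and above it for the other 6.

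The receptors of the adipokines were lower in KO for 6 of the 9 tested of 11 listed, and higher for 1, with a median log2 fold change of -1.82, the value of Lepr. Adipor1, the adiponectin receptor most prominent in muscle, measured 157, 181 and 165 CPM in KO and 168, 229, 223 and 188 CPM in KO + NM1, with a log2 fold change of -0.27 (SE 0.16, adjusted p = 0.193, edgeR). Adipor2, the second of the pair, was at 139 to 152 CPM in KO and at 163, 569, 774 and 489 CPM in KO + NM1, with -1.76 (SE 0.46, adjusted p = 0.0206, edgeR). The groups just separate, at KO + NM1 piece 01, and the adjusted p was above 0.05 without any one of KO pieces 01, 02 and 03, at 0.0613, 0.0552 and 0.0644. Cdh13, T-cadherin, which binds the large forms of adiponectin, overlapped between groups, with -1.16 (SE 0.37, adjusted p = 0.0403, edgeR), and this call was lost without any one piece other than KO + NM1 piece 01, at adjusted p of 0.0675 to 0.108. Lepr, the leptin receptor, had 1.90, 6.08 and 3.93 CPM in KO and 34.0, 5.78, 4.89 and 11.6 CPM in KO + NM1 and did not pass at -1.82 (SE 0.75, adjusted p = 0.0955, edgeR). Its highest value was in KO + NM1 piece 01, where Lep was lowest in its group.

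Stra6, the membrane receptor that takes retinol from RBP4, was the receptor that went the other way. It measured 22.3, 24.5 and 37.0 CPM in KO and 7.88, 5.82, 1.28 and 5.30 CPM in KO + NM1, without overlap, which held for 30.5% of all genes in that direction, and its log2 fold change was 2.46 (SE 0.54, adjusted p = 0.0091, edgeR). Aplnr, the apelin receptor of endothelium, measured 13.5, 15.0 and 14.8 CPM in KO and 37.3, 106, 83.8 and 85.6 CPM in KO + NM1, with -2.43 (SE 0.33, adjusted p = 0.00175, edgeR), while its ligand Apln did not pass. The KO pieces of Aplnr were nearly equal. Of the neuregulin receptors, Erbb3 measured 8.07, 17.6 and 7.50 CPM in KO and 23.6 to 110 CPM in KO + NM1, with -2.63 (SE 0.53, adjusted p = 0.00866, edgeR). Erbb4, the receptor that NRG4 binds directly, had at most 1 count in a KO piece and 0.365 to 2.06 CPM in KO + NM1 pieces, at least 10.9-fold lower in KO. Agtr1a, the main angiotensin II receptor, measured 1.23, 2.05 and 3.04 CPM in KO and 12.6 to 38.9 CPM in KO + NM1, with -3.82 (SE 0.46, adjusted p = 0.00153, edgeR). Agtr1b had at most 2 counts in any library and Agtr2 did not pass the filter.

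Endothelial transcripts differed as well. All 6 endothelial markers were lower in KO, at a summed 193 to 215 CPM against 1010 to 1370 CPM. Pecam1, the junction protein CD31, had a log2 fold change of -2.48 (SE 0.20, adjusted p = 0.000446, edgeR) and Cdh5, VE-cadherin, -2.71 (SE 0.26, adjusted p = 0.000685, edgeR). Their part in the levels of Aplnr, Apln and the angiotensin enzymes was not tested.

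Among 15 enzymes, carriers and targets on which the adipokines act or depend, 13 were tested, 5 were lower in KO and 0 higher by both thresholds, with a median log2 fold change of -1.04. On the higher side 1 gene of these had an unadjusted p under 0.05 in edgeR, Ero1l, and DESeq2 and limma voom called 0 and 1. Lpl, the lipase that ANGPTL4 inhibits, measured 85.6, 119 and 106 CPM in KO and 915, 6360, 6540 and 5490 CPM in KO + NM1, with -5.55 (SE 0.62, adjusted p = 0.00163, edgeR). Gpihbp1, which holds this lipase on capillaries, had -4.31 (SE 0.48, adjusted p = 0.00132, edgeR), and Lmf1, which helps it fold, -1.47 (SE 0.29, adjusted p = 0.00611, edgeR). The inhibitor, its target and the anchor of the target were thus all lower in the KO pieces. In the angiotensin path Ace had -1.60 (SE 0.32, adjusted p = 0.00728, edgeR) and Enpep, aminopeptidase A, -4.09 (SE 0.45, adjusted p = 0.00119, edgeR), whereas Ren1 had 0 counts in all 7 libraries.

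The partners of adipsin and adiponectin did not pass both thresholds. C3, the complement protein downstream of adipsin, measured 277, 410 and 445 CPM in KO and 1980, 447, 665 and 600 CPM in KO + NM1. It was highest in the piece where Cfd was lowest in its group, and its log2 fold change of -1.29 (SE 0.54, adjusted p = 0.0915, edgeR) did not pass, although each KO piece lay below each KO + NM1 piece and DESeq2 gave an adjusted p of 0.0226. Cfb, the factor that adipsin cuts, stood at 0.46 (SE 0.57, adjusted p = 0.526, edgeR). Erp44, which retains adiponectin in the secretory path, stood at -0.30 (SE 0.14, adjusted p = 0.115, edgeR), also without overlap, and Ero1l, which releases it, at 0.47 (SE 0.14, adjusted p = 0.0249, edgeR), under 2-fold. The NAD enzymes downstream of NAMPT, Nmnat1, Nmnat2 and Nmnat3, had log2 fold changes of -0.78, 0.43 and -1.04 and none passed. Ttr, the blood carrier of RBP4, had at most 1 count in any library.

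**Figure D4:**
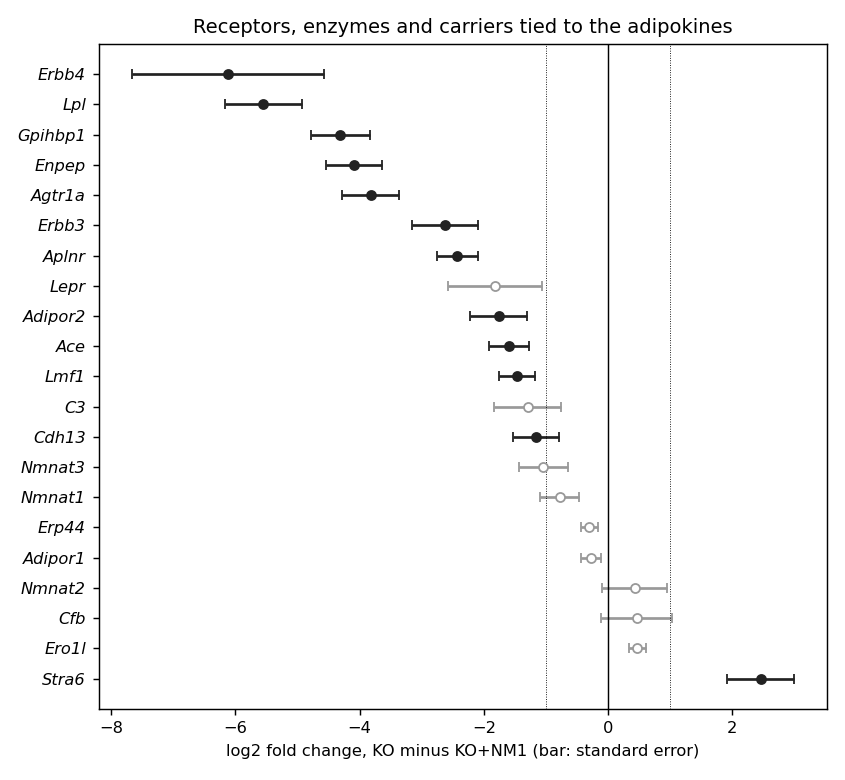
Log2 fold change, KO minus KO + NM1, with its standard error from edgeR, for 21 tested receptors, enzymes, carriers and targets of the adipokines. Filled points are called at an adjusted p under 0.05 and at least 2-fold; 11 lie on the lower side, from Erbb4 to Cdh13, and Stra6 alone on the higher side. The point of Erbb4 depends on a prior count, since its KO pieces hold at most 1 count.

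Other secreted factors of fat went the same way in most cases, with exceptions in both lists examined. Of 23 listed, 21 were matched by symbol and 14 tested; 9 were lower and 2 higher in KO, with a median log2 fold change of -2.65. The largest falls above 1 CPM were those of Lcn2, lipocalin 2, with -6.75 (SE 0.83, adjusted p = 0.00256, edgeR), of Sfrp5, a WNT-binding protein, with -6.19 (SE 1.04, adjusted p = 0.00685, edgeR), and of Ccdc3, with -5.69 (SE 0.61, adjusted p = 0.00125, edgeR). Lcn2 measured 0.133, 2.57 and 1.09 CPM in KO and 44.5, 172, 114 and 213 CPM in KO + NM1. It was highest in piece 04, unlike the fat cell markers, and glandular epithelium also makes it. Nrg1, another neuregulin, rose from 0.0411 to 0.547 CPM in KO + NM1 to 4.66 to 5.23 CPM in KO, with 4.47 (SE 0.76, adjusted p = 0.00357, edgeR). Nrg4 and Nrg1, of 1 gene family, thus stood in opposite directions.

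The C1q/TNF-related proteins share the fold of adiponectin. Of 9 listed, 8 were tested, 5 were lower and 2 higher in KO, with a median of -1.90. C1qtnf9 had a log2 fold change of -4.29 (SE 0.49, adjusted p = 0.00142, edgeR), C1qtnf12 of -3.92 (SE 0.47, adjusted p = 0.00154, edgeR) and C1qtnf7 of -3.29 (SE 0.48, adjusted p = 0.00275, edgeR). C1qtnf3, known as cartducin or CTRP3, measured 42.1, 23.2 and 64.4 CPM in KO and 0.182, 0.529, 0.0988 and 1.19 CPM in KO + NM1. Its log2 fold change was 6.41 (SE 0.74, adjusted p = 0.00129, edgeR), and that of C1qtnf6 was 1.20 (SE 0.20, adjusted p = 0.00277, edgeR), lost to 0.97, under 2-fold, without KO piece 03.

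Markers of other tissues also differed between the tumors, and their part in the adipokine levels was not tested. Mammary epithelium markers were lower in KO for 5 of 7 tested of 8, summing to 3.87 to 67.5 CPM in KO and 448 to 1860 CPM in KO + NM1, where Csn3, kappa-casein, reached 625 CPM in piece 04 and Wap had at most 2 counts. Csn1s1, a casein, had -4.44 (SE 0.91, adjusted p = 0.0125, edgeR) and Csn2, beta-casein, did not pass at -2.93 (SE 1.16, adjusted p = 0.0949, edgeR), but did in edgeR without KO + NM1 piece 01 or 04, at adjusted p of 0.0458 and 0.0326. Brown adipocyte markers were lower for 4 of 7 and higher for 1. The higher one was Zic1, at 18.4 to 26.6 CPM in KO and 0 to 0.329 CPM in KO + NM1. Its log2 fold change was 7.69 (SE 0.95, adjusted p = 0.00126, edgeR). Ucp1, the uncoupling protein of brown and beige fat, measured 191, 325, 1780 and 130 CPM in KO + NM1 and at most 0.132 CPM in KO, and Cidea, a droplet protein, was likewise highest in piece 03 at 793 CPM. Piece 03 was not the highest for any called adipokine except Nrg4. Hepatocyte markers, of interest for Rbp4, Agt and Angptl4, which liver makes, were lower in KO for both of the 2 tested of 6: Alb was at least 111-fold lower in KO and stood at 1.75 to 18.0 CPM in KO + NM1, Fgb, a fibrinogen chain, had 3.79 to 30.6 CPM there. These levels are in the range of Agt, while Apoa1, the main apolipoprotein of high-density lipoprotein, had at most 3 counts in any library.

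Skeletal muscle markers went the other way, with 7 of 7 higher in KO, at 2080 to 17300 CPM against 13.7 to 34.6 CPM. Ckm, the muscle creatine kinase, had 174, 1490 and 1080 CPM in KO, Acta1, skeletal actin, 627, 4060 and 3060 CPM, and Myh4, a fast myosin, 657, 8010 and 6510 CPM. KO piece 02 was highest for these as it was for Adipoq, Lep, Cfd and Retn. Macrophage markers were higher in KO for 7 of 8 and lower for 1, summing to 2250 to 2580 CPM against 481 to 682 CPM. The log2 fold changes were 2.88 for Adgre1, 1.25 for Csf1r and 2.91 for C1qa. Cd14 went the other way, at -1.77 (SE 0.41, adjusted p = 0.0128, edgeR). A test against 2-fold (glmTreat in edgeR) called 3 of the 8 markers higher and 0 lower. Of 4 neutrophil markers tested of 6, 1 was lower, Ltf, lactoferrin, at 147 to 1590 CPM in KO + NM1, which epithelium also makes; S100a8 and S100a9 did not pass, and Ly6g had at most 2 counts. Of 7 fibroblast markers 4 were lower and 0 higher in edgeR, with 1 at an unadjusted p under 0.05 on the higher side and 1 and 1 called by DESeq2 and limma voom, and with Col1a1 at 1.42 (adjusted p = 0.0514, edgeR, and 0.0204 without KO + NM1 piece 01) and Col1a2 at 0.39 (adjusted p = 0.544, edgeR).

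Transcripts induced by low oxygen, to which Angptl4, Apln, Lep and Nampt are known to respond, did not move together. Of 10 such targets outside the adipokines, 3 were lower and 1 higher in KO. Over all genes tested 20.3% were lower and 17.1% higher, so these counts do not set the targets apart. The targets had a median log2 fold change of 0.19 and sums of 1120 to 1170 CPM in KO and 853 to 2440 CPM in KO + NM1. The number higher was 3 without KO + NM1 piece 01 and 2 without KO + NM1 piece 03. Vegfa, the endothelial growth factor, had -3.02 (SE 0.35, adjusted p = 0.0013, edgeR), while Car9, a carbonic anhydrase, at 1.36 (adjusted p = 0.192, edgeR), and Ldha, lactate dehydrogenase, at -0.29 (adjusted p = 0.569, edgeR), did not pass.

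For each adipokine the gene with the most similar pattern was sought among 11901 protein-coding genes with a mean of at least 5 CPM, by the root mean square difference of log2 CPM over the 7 pieces after centring each gene on its own mean. Adipoq was nearest to Cyp2e1, at 0.226 log2 units, then to Ces1d at 0.273, Cidec at 0.351, Tshr at 0.416 and Plin1 at 0.440. Lep was nearest to Plin1 (0.291), Cfd to Glb1l2 (0.169), Retn to Tshr (0.238), Rbp4 to Ntrk2 (0.192), Angptl4 to Car5b (0.127), Nrg4 to Clybl (0.165) and Agt to Ptgfr (0.420). Nampt was nearest to Psph (0.128), an enzyme of serine synthesis, and Apln to Mgmt (0.289), a DNA repair protein. The measure is dominated by the difference between the tumors for all but Nampt and Apln.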

How the data were processed

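Values were deposited as read counts per Ensembl gene, 1 file for each of the 7 tumor pieces, whole numbers without normalization. Per the labels and methods, the authors used Trimmomatic 0.36 for trimming, HISAT2 2.0.4 for alignment (GRCm38), SAMtools 0.1.19 for sorting and HTSeq for the counts; annotation release and strand option are not given in the sources used here. Symbols, coordinates and exon lengths came from GENCODE M21 (46091 of 46603 genes matched), promoters from RefSeq. There were 0 sample columns left unused. Replicates were not duplicates: each pair of libraries differed by more than sampling noise.

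Counts were filtered with edgeR 4.0.16 (filterByExpr), scaled by TMM and tested with the quasi-likelihood F test, KO against KO + NM1, without covariates. The biological coefficient of variation was 46.7%. Log2 CPM used a prior count of 2. Alternatives used other scalings, filters, DESeq2 1.42.0, limma 3.58.1 and left-out pieces. The code was tested on simulated data, where 42.9% of the 4-fold and 85% of the 16-fold changes set in were called. Of the calls made there, 3.79% were of unchanged genes. A gene that did not pass may therefore still differ between the tumors. The 10 members, the gene lists and the tests were chosen with earlier results of these data known. Named were all members, receptors and partners, up to 3 rises and 3 falls per list of other secreted factors at a mean of at least 1 CPM, the first 2 genes and the most abundant gene of each marker list, and the nearest genes in pattern. Motif TATAA and the calls by adjusted p alone were added after the data were seen. A few genes so chosen are left out of the text. Cd14 and Zic1 were named as well, since each went against the other called markers of its list. Keratinocyte markers are reported with the processing alternatives.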

Additional observations from a re-analysis of the deposited data

Results flagged for a closer look

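In the KO + NM1 tumor, 4 of the 10 adipokines had 1 piece far from the others. In each case the lowest piece was piece 01. Its gap to the next piece was taken in log2 CPM, as a share of the whole range of the 4 pieces. On that scale the share was above the 95% limit of the Dixon test. That share was 0.839 for Adipoq, 0.917 for Lep, 0.845 for Cfd and 0.851 for Retn. Rbp4 was just under the limit at 0.818. Chance alone marks about 1 group in 20, and the 10 genes were measured in the same pieces, so these are not separate events. In that piece the sum of the 12 white adipocyte markers was 4500 CPM, also the lowest of its group.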

How the results depend on the processing

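The log2 fold changes of all 10 adipokines kept their sign in every alternative, and 8 were called lower in each except 7 with the replicate block, 6 where at least 10 counts were asked of every library, which leaves out Lep and Agt, and 9 without KO + NM1 piece 01. The sample titles number the pieces but state no pairing. Correlations of same-numbered pieces were 0.08, 0.12 and -0.04, and those of other pairs -0.12 to 0.09. With so few pieces these values cannot show whether pieces of a number were handled together. With the replicate block Rbp4 was at -4.10 with an adjusted p of 0.0526 from edgeR. Stra6, Adipor2 and Cdh13 also missed the threshold there (0.0669, 0.106 and 0.0656), and the keratinocyte median turned to -0.38. By adjusted p alone, without the 2-fold minimum, 1 adipokine was higher, Nampt at 0.70, and 4345 of all genes. A test against 2-fold (glmTreat in edgeR) called 2074 genes lower and 1707 higher and lost Adipor2, Lmf1, Ace, C1qtnf6, Csf1r and Cdh13. limma voom with quality weights moved the adipokine median to -5.23, with Lep at -10.85, Adipoq at -9.08, Cfd at -8.12, Retn at -9.43, Agt at -5.49 and Rbp4 at -4.98; the cause was not tested. Leaving out 1 piece at a time gave adipokine medians from -5.48, without KO piece 02, to -4.38, and Apln from -1.26 to -0.56. Of 6 keratinocyte markers, 4 were tested and 1 was higher; the list summed to 3.86 to 1220 CPM in KO, highest in piece 02, and 56.2 to 420 CPM in KO + NM1, and its median of 1.94 turned to -1.73 with voom and ran from -2.77, without KO piece 02, to 3.86 with other pieces left out. Krt5 and Krt14, of basal skin, did not pass. The hypoxia median of 0.19 ran from -0.06, without KO piece 01, to 0.34 with other pieces left out. With Plin1 in place of the 12 markers the relative shift of Adipoq was 0.68, of Cfd 1.87 and of Retn 0.86. The median of all genes moved to -0.16 with upper-quartile scaling and 0.17 with library size alone. DESeq2 alone called Lepr and C3 lower (adjusted p of 0.0214 and 0.0226), and DESeq2 and the replicate block called Csn2 lower (0.0117 and 0.0118). The hypoxia targets higher in KO were 3 with voom and 0 with glmTreat. Depth limits Lep and Agt in KO pieces, with as few as 0 and 4 counts.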

Other observations

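Within the KO + NM1 tumor alone, where the difference between tumors plays no part, the nearest genes in pattern over the 4 pieces were others than over all 7. Adipoq and Cfd were both nearest to Car3, a carbonic anhydrase abundant in fat and muscle, at 0.028 and 0.023 log2 units. Lep was nearest to Slc7a10 (0.040), an amino acid transporter, Retn to Sncg (0.019), Rbp4 to Irs3 (0.027), an insulin receptor substrate of mouse fat, Angptl4 to Cmbl (0.029), Nrg4 to Fcor (0.032), Nampt to Scd2 (0.026), Apln to Cst6 (0.036) and Agt to Peg10 (0.217). With 4 pieces, close matches among 11901 candidates can arise by chance, and these are descriptions only.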
